A study of Rattus norvegicus with 9 samples.

Results

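The ureteric bud (UB) was compared with the Wolffian duct (WD) in Sprague-Dawley rat embryos at embryonic day 13 (E13). The comparison takes 6 of the 9 arrays of the study, 3 of isolated UB and 3 of isolated WD, and 20826 of the 31099 probe sets, those that the platform table pairs with 1 gene symbol (14217 genes). Each UB array held RNA from a pool of about 100 buds that were freed from the embryonic kidney by light trypsin digestion. Each WD array held a pool of about 100 ducts dissected without enzyme, so the enzyme and the tissue cannot be told apart. All embryos were of the same strain and no genotype, drug or culture step is given. The remaining 3 arrays held pools of about 50 WDs with attached mesodermal cells and entered the fit only as a further group for the spread. Arrays of 1 tissue are labelled as biological replicates, so a p-value here rests on how far such pools differ.

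The WD is an epithelial tube that runs along the intermediate mesoderm of the embryo. At its caudal end the neighbouring mesenchyme secretes GDNF, which binds the receptor kinase RET and its co-receptor GFRA1 on duct cells and makes the duct put out the UB. The bud then branches within the kidney mesenchyme. Its tips keep dividing and signalling through RET and the ERK kinase pathway, while the trunks behind them become the collecting ducts and the ureter.

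An intensity is the authors' linear signal of a probe set, after scaling of every array to a common trimmed mean. A log2 difference is the mean of log2(intensity + 46) over the UB arrays minus that over the WD arrays, with its standard error (SE), n = 3 arrays a group. "Rose" and "fell" mean higher and lower in the UB at an adjusted p under 0.05 (limma, adjusted over all probe sets tested). Differences of weak genes are understated on this scale. Intensities of different genes come from different probes and are not set against each other.

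Both tissues carried the epithelial markers Cdh1 and Epcam at like levels, which do not tell bud from duct. Other epithelial adhesion genes and keratins were called in both directions, more of them lower in the UB, as given below. The WD arrays also carried mesothelial, stromal and red cell transcripts, as given below. The adhesion proteins Cdh1 (E-cadherin) and Epcam, which hold epithelial cells together, were at 26007, 26887 and 29825 on the UB arrays and 31968, 25714 and 30741 on the WD arrays, and at 55012, 51114 and 51874 on the UB arrays and 52412, 56365 and 55462 on the WD arrays. The 3 arrays of each tissue overlapped for both genes, with log2 differences of -0.09 ± 0.16 (SE, adjusted p = 0.687) and -0.06 ± 0.20 (SE, adjusted p = 0.853). On the arrays of WD with mesoderm, Cdh1 was lower, at 7067, 10352 and 10154. The transcription factors of the duct lineage Pax2, Gata3 and Emx2 also overlapped between the tissues (log2 differences of 0.29 ± 0.21, -0.15 ± 0.30 and -0.52 ± 0.20, adjusted p = 0.314, 0.733 and 0.0628). Emx2 was called lower without WD replicate 3 (adjusted p = 0.0153) and with quantile normalization (adjusted p = 0.0185), and Pax2 was called higher with a centring described below (adjusted p = 0.0233). Gdnf, Wnt9b and Wnt7b were not among the genes tested.

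Technical measures also separated the tissues. The bioC to bioB ratio, read from spiked bacterial controls, ran from 2.88 to 2.99 for the UB and from 1.02 to 1.24 for the WD; with mesoderm it was 1.09, 1.23 and 2.93. The 10th percentile of intensity ran from 26.9 to 35.4 for the UB and from 55.8 to 77.2 for the WD. Beta-actin 3' probes gave 1.48 to 2.30 times the signal of its 5' probes in the UB and 2.19 to 4.87 times in the WD, a ratio that rises as RNA degrades. A further fit held a term for whether the spike ratio of an array exceeded 2 (the spike term). This fit separates the ratio from the tissue only through replicate 3 of WD with mesoderm. It kept 516 of the 3565 called genes, and 3522 of the 3565 kept their sign. Where the call of a named gene was lost in that fit, its adjusted p from it is given. Whether the spike ratio or RNA integrity had a part in any difference was not tested beyond these fits.

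Of the 10809 genes tested, 1443 (13.3%) rose and 2122 (19.6%) fell, and the median log2 difference over all genes was -0.08. The falls were the larger changes. Among called genes 66 rose and 332 fell at least 4-fold, and 6 rose and 31 fell at least 16-fold. For 22.1% of genes each UB array exceeded each WD array, and for 29.7% each was below. These shares are the background against which each gene group is read. The split depended on how arrays were centred. Rises made up 40.5% of calls as deposited, 56.3% after centring each array on the median of the tested probe sets and 81.2% after centring it on the median of all probe sets, a scaling added after the data were seen. The last moved the median difference of all genes from -0.08 to 0.39, so every modest difference is relative to such a shift.

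**Figure D1:**
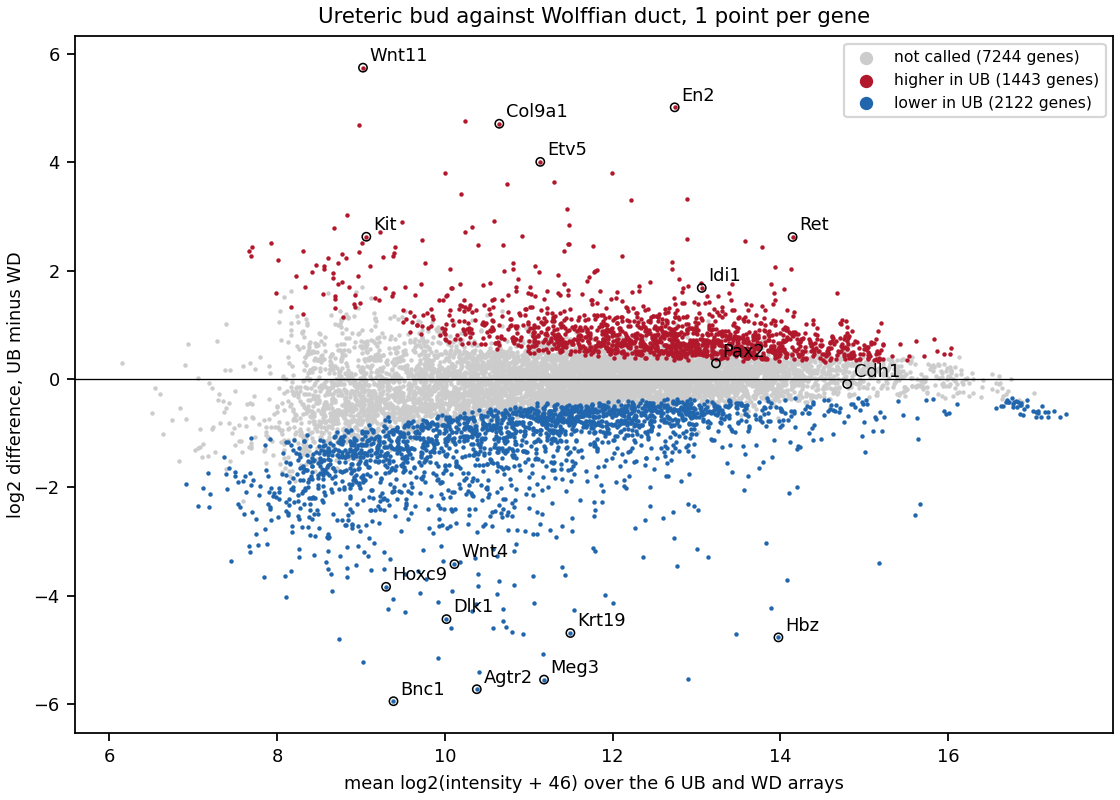
Each point is 1 of the 10809 genes tested, with its mean log2(intensity + 46) over the 6 UB and WD arrays on the x axis and its log2 difference, UB minus WD, on the y axis. Red points rose (1443 genes), blue points fell (2122 genes) and grey points were not called; the falls reach further from 0 for more genes than the rises, and Pax2 and Cdh1 lie near 0.

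Most genes of the bud tip rose, several by a wide margin. Of 12 tip genes tested, 8 rose and 1 fell, with a median log2 difference of 2.14. Several are counted again below, such as Ret and Gfra1 in the receptor complex, Etv4 and Etv5 among ERK targets and Wnt11 among Wnt genes. These lists are therefore not independent. Wnt11, a Wnt ligand secreted by bud tips, had intensities of 4383, 2629 and 4665 on the UB arrays and 17.4, 25.3 and 33.0 on the WD arrays. All WD values lay below the pseudocount of 46, a level at which a signal cannot be told from background here, and the log2 difference was 5.75 ± 0.41 (SE, adjusted p = 1.42e-06). The chemokine Cxcl14 stood at 3153, 2138 and 2387 on the UB arrays and 72.7, 62.7 and 28.9 on the WD arrays, and every UB array was far above every WD array (4.70 ± 0.42 (SE, adjusted p = 9.45e-06)). Cxcr4, the receptor of another chemokine, Cxcl12, was above the pseudocount in both tissues, at 21170.3, 19530.4 and 15342 on the UB arrays and 3181, 4326 and 2011 on the WD arrays. It rose by 2.59 ± 0.24 (SE, adjusted p = 1.44e-05), while Ackr3, the scavenging receptor of Cxcl12, changed by -1.65 ± 0.17 (SE, adjusted p = 3.31e-05). The tip gene that went the other way was Moxd1, which encodes a protein related to copper monooxygenases, at 440.4, 448 and 380.3 on the UB arrays and 2921, 2973 and 1664 on the WD arrays. It fell without overlap of the arrays (-2.41 ± 0.23 (SE, adjusted p = 1.59e-05)). Met, the receptor of HGF, was called at 1.68 ± 0.57 (SE, adjusted p = 0.0425), but the call was lost without any of the 3 UB replicates or WD replicates 1 or 2 (adjusted p = 0.0775, 0.072, 0.16, 0.131 and 0.0882).

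The 250 bases before the RefSeq start of Wnt11, the gene with the largest rise, lie at chr1:162549110-162549359 on the plus strand in GRCr8. They are shown 5' to 3' with the AGGAAG match, a core of sites bound by ETS factors such as Etv4 and Etv5, in capitals (either strand).
Wnt11: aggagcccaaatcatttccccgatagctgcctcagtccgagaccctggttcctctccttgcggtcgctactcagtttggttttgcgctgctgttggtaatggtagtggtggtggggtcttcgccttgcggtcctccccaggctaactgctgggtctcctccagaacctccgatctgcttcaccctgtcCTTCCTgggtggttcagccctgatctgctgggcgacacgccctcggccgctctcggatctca
AGGAAG stood in 3 of the 10 ERK target genes called higher that have such a sequence in the table, against 29.4% of all 27457 RefSeq upstream sequences, so the share was near the background. The upstream sequence of Etv5 itself holds 0 matches and is not printed.

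Genes of the RET receptor complex were called in both directions. Ret was at 47692, 49028 and 38887 on the UB arrays and 7387, 6340.0 and 8168 on the WD arrays. The arrays did not overlap, and it rose by 2.62 ± 0.20 (SE, adjusted p = 2.77e-06). Its GDNF co-receptor Gfra1 was at 26862, 24266 and 23807 on the UB arrays and 8581, 9741 and 10408 on the WD arrays and rose by 1.38 ± 0.18 (SE, adjusted p = 2.08e-04). Gfra2, the co-receptor preferred by neurturin, was lower in the UB, at 446, 352 and 324 on the UB arrays and 3059, 2700.2 and 2369 on the WD arrays (-2.72 ± 0.20 (SE, adjusted p = 1.82e-06)). Gfra3, which binds artemin, was also lower (-2.14 ± 0.33 (SE, adjusted p = 6.15e-04)), a call lost with the spike term (adjusted p = 0.083). Nrtn, which encodes neurturin itself, rose: the UB arrays had 16389, 13045 and 13302 and the WD arrays 3263, 2643 and 3496 (2.17 ± 0.24 (SE, adjusted p = 4.58e-05)). In all, 3 of the 12 receptor complex genes tested rose and 4 fell (25% and 33.3%, against 13.3% and 19.6% of all genes tested). With centring on all probe sets 5 rose and 2 fell, and with the spike term 1 fell.

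Transcripts induced by RET and ERK signalling, and the inhibitors that feed back on it, had the largest share of rises among the 41 gene lists. Of 14 tested, 13 rose and 0 fell, with a median of 1.71. The ETS transcription factor Etv5 had intensities of 9384, 8544 and 9104 on the UB arrays and 765, 316 and 556 on the WD arrays. Etv4 had 15498, 16266 and 14033 on the UB arrays and 1160.5, 1256 and 779 on the WD arrays, and Etv1 had 15992, 17163 and 12219 on the UB arrays and 1423, 1525 and 1451 on the WD arrays. No UB array came near a WD array for any of the 3 factors, and the log2 differences were 4.01 ± 0.27, 3.81 ± 0.27 and 3.31 ± 0.16 (SE, adjusted p = 8.19e-07, 1.40e-06 and 8.20e-08). The feedback inhibitor Spry1 stood at 37055, 32330.5 and 29561 on the UB arrays and 6169, 4538 and 7817 on the WD arrays and rose by 2.44 ± 0.18 (SE, adjusted p = 1.81e-06). Its relatives Spry4 and Spry2 rose by 1.63 ± 0.21 and 1.86 ± 0.35, the ERK phosphatase Dusp6 by 2.03 ± 0.25 and the transcription factor Myb by 1.78 ± 0.26, genes singled out after their values were seen. In the fit with the spike term, the calls for Spry2 and Myb were lost (adjusted p = 0.59 and 0.106) and 6 of the 13 rises were kept. The member that was not called was Spsb4.

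Other large rises included genes better known from neural tissue. The homeobox factor En2 had 41209, 38954 and 36740.0 on the UB arrays and 1281, 778 and 1541 on the WD arrays. Cnpy1 had 6744, 5642 and 6424 on the UB arrays and 274, 379.7 and 44.2 on the WD arrays, and WD replicate 3 lay below the pseudocount. The growth cone protein Gap43 had 10031, 7675 and 7488 on the UB arrays and 744, 1047 and 932 on the WD arrays. All 3 genes were higher on every UB array, with log2 differences of 5.02 ± 0.37, 4.77 ± 0.49 and 3.15 ± 0.22 (SE, adjusted p = 1.83e-06, 2.95e-05 and 1.21e-06). Of 17 neuronal-type genes tested, 5 rose and 3 fell (29.4% and 17.6%, against 13.3% and 19.6% of all genes tested), and the median was -0.56. The falls numbered 0 without UB replicate 1 or 3 or with centring on all probe sets, and 1 without WD replicate 1 or 2 or with the spike term, which left 3 rises. Neuropeptide Y (Npy) had 7719, 7172 and 8057 on the UB arrays and 1072, 987 and 999 on the WD arrays and rose by 2.85 ± 0.17 (SE, adjusted p = 4.43e-07). The remaining genes among the 15 largest rises were Col9a1, Fam181b, Gchfr, which regulates GTP cyclohydrolase, the protocadherin Pcdh17, the adhesion molecule Icam2, the ubiquitin ligase Marchf11 and the adhesion receptor Adgrb3. Their log2 differences were 4.72 ± 0.29, 3.80 ± 0.36, 3.64 ± 0.35, 3.61 ± 0.24, 3.42 ± 0.25, 3.33 ± 0.22 and 3.03 ± 0.55 (SE). Adgrb3 lost its call with the spike term (adjusted p = 0.319).

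**Figure D2:**
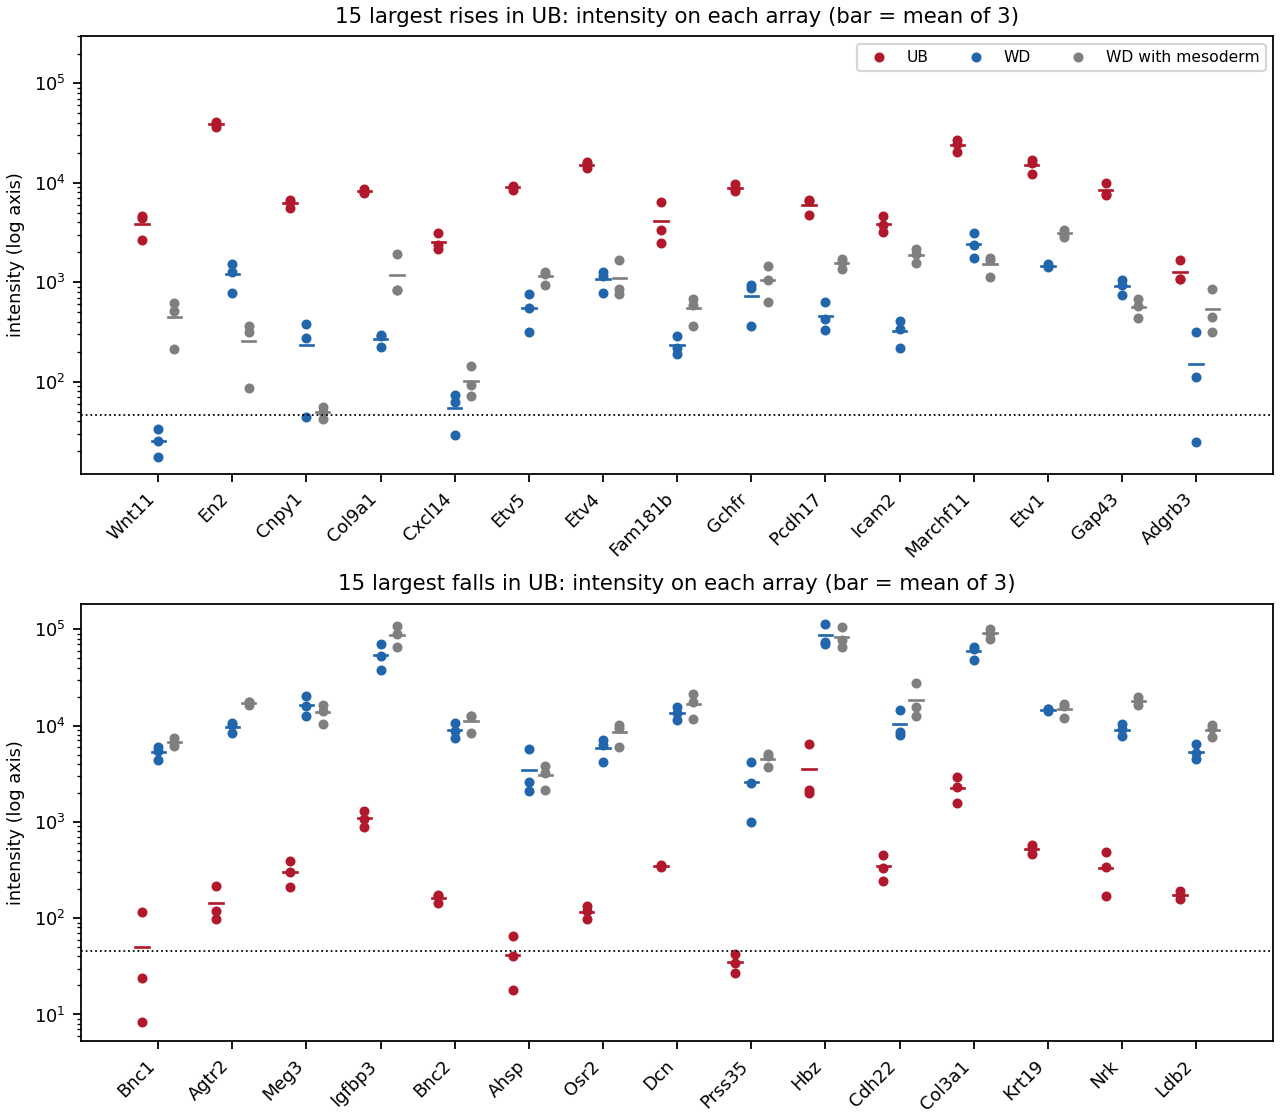
Intensities on a log axis of the 15 largest rises (top) and the 15 largest falls (bottom) among called genes whose UB and WD arrays did not overlap; red is UB, blue is WD, grey is WD with mesoderm, 1 point per array and a bar at the mean of 3. The dotted line marks the pseudocount of 46; Wnt11 lies below it on the 3 WD arrays, and for most of the falls the WD arrays lie close to those of WD with mesoderm.

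Genes of the later trunk and of urothelium were mostly lower in the UB. Of 10 tested, 1 rose and 7 fell, with a median of -1.65; the uroplakins, Aqp2 and Shh were not among the genes tested. Without UB replicate 1 the falls numbered 4, with a filter at the 60th percentile 4, and with the spike term 3. The transcription factor Elf5 had 616, 670.1 and 698 on the UB arrays and 2689, 3172 and 3243 on the WD arrays, Gata2 had 1807, 1955 and 1626 on the UB arrays and 7047, 8712 and 7456 on the WD arrays, and keratin 7 (Krt7) had 1149.9, 911 and 1004 on the UB arrays and 2848, 3947 and 3374 on the WD arrays. All 3 fell without overlap (-2.12 ± 0.26, -2.08 ± 0.20 and -1.68 ± 0.20, adjusted p = 1.29e-04, 1.55e-05 and 7.64e-05). They differed on the arrays of WD with mesoderm, where Gata2 was at 8044, 14341 and 11805 and Elf5 at 644, 498 and 1068. Scnn1g, a subunit of the epithelial sodium channel, changed by -2.41 ± 0.33 (SE, adjusted p = 2.43e-04, and 0.0666 with the spike term). The member that rose was calbindin (Calb1), a calcium-binding protein of the collecting system, at 2093, 1641 and 2066 on the UB arrays and 231, 48.8 and 642 on the WD arrays. Its WD values were widely spread, and the rise of 2.91 ± 0.65 (SE, adjusted p = 0.00653) was lost with the spike term and also when the fit held the beta-actin ratio, called the beta-actin covariate from here on (adjusted p = 0.372 and 0.101).

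Keratin 19 (Krt19), found in simple epithelia and mesothelium, fell with little spread between arrays: 538, 464 and 570.3 on the UB arrays and 14807, 14889 and 14251 on the WD arrays (-4.69 ± 0.16 (SE, adjusted p = 7.42e-09)). Krt8, the keratin of most simple epithelia, had 13001, 11896 and 13481 on the UB arrays and 19342, 23939.5 and 21925 on the WD arrays and a smaller difference (-0.76 ± 0.16 (SE, adjusted p = 0.00407)). The call for Krt8 was lost with the spike term and with centring on all probe sets (adjusted p = 0.281 and 0.313). Krt18 changed by -0.59 (adjusted p = 0.0203). Its call was lost with the spike term, the beta-actin covariate and centring on all probe sets (adjusted p = 0.218, 0.0668 and 0.697). The Krt18 call was also lost without UB replicate 1 or 2 or WD replicate 2 or 3 (adjusted p up to 0.0724). The arrays of WD with mesoderm had Krt19 at 12042, 16738 and 16012, within or near the range of the bare WD, and Krt8 at 5746, 8608 and 6441, below it. Of 18 keratin and filament genes tested, 1 rose and 9 fell. The falls numbered 5 without UB replicate 1, 5 with quantile normalization, 4 with centring on all probe sets and 2 with the spike term. Related keratins share sequence that probe sets may not separate.

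Tight junction genes rose in 17.4% and fell in 4.35% of cases, against 13.3% and 19.6% of all genes tested. Cadherin and epithelial adhesion genes rose in 6.9% and fell in 27.6%. Of 23 tight junction genes, 4 rose and 1 fell; occludin (Ocln) and the scaffold Tjp1 differed by 0.11 ± 0.13 and -0.18 ± 0.12 (adjusted p = 0.557 and 0.278). With centring on all probe sets 11 rose, Ocln among them. Without UB replicate 1 the rises numbered 2, and with the spike term 1. Claudin 11 (Cldn11) had 5141, 4456 and 4922 on the UB arrays and 1736, 1351 and 1785 on the WD arrays and rose by 1.56 ± 0.18 (SE, adjusted p = 6.04e-05) without overlap. Claudin 3 rose by 1.11 ± 0.17 (SE, adjusted p = 5.32e-04), a call lost with the spike term (adjusted p = 0.0549). Of 29 cadherin and epithelial adhesion genes, 2 rose and 8 fell, and without UB replicate 1 or 3 the falls numbered 5. The falls also numbered 5 with the beta-actin covariate and 2 with the spike term, and with centring on all probe sets 7 rose and 5 fell. The N-cadherin gene Cdh2 was the largest of them, at 516, 365 and 538 on the UB arrays and 4718, 5512 and 3468 on the WD arrays (-3.14 ± 0.23 (SE, adjusted p = 1.52e-06)), followed by the membrane protein Mal (-2.09 ± 0.24 (SE, adjusted p = 6.91e-05); 0.0554 with the spike term) and kidney cadherin Cdh6 (-1.90 ± 0.38 (SE, adjusted p = 0.00352); 0.324 with the spike term). Another cadherin, Cdh22, was among the 15 largest falls of all genes, at 244, 331 and 457 on the UB arrays and 14632, 8487 and 7973 on the WD arrays.

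Mesothelial and gonadal ridge genes had the lowest median of the 41 lists. Of 11 tested, 0 rose and 9 fell, with a median log2 difference of -4.13. The transcription factor basonuclin 1 (Bnc1) had 23.7, 8.44 and 117 on the UB arrays and 5443, 5984 and 4377 on the WD arrays. Its relative Bnc2 had 172, 145 and 169 on the UB arrays and 10631, 8701 and 7451 on the WD arrays. The angiotensin receptor Agtr2 had 97.7, 214 and 118 on the UB arrays and 10204, 10577 and 8379 on the WD arrays. The UB values of Bnc1 reached below the pseudocount and those of the other 2 stayed above it, and the 3 genes fell with log2 differences of -5.95 ± 0.34, -5.42 ± 0.20 and -5.73 ± 0.21 (SE, adjusted p = 2.21e-07, 1.30e-08 and 1.30e-08). Osr2 and Wt1, transcription factors of kidney and coelomic mesoderm, had 118, 135 and 98.1 on the UB arrays and 6287, 4176 and 7095 on the WD arrays, and 1395, 796 and 740.1 on the UB arrays and 17980.3, 18378 and 15442 on the WD arrays. Both fell without overlap (-5.15 ± 0.25 and -4.13 ± 0.22, adjusted p = 8.20e-08 and 1.26e-07). The summed intensity of the list was 26227 to 33259.9 on the UB arrays, 150593 to 182557 on the WD arrays and 189451 to 204386 with mesoderm. 11 of the 11 markers had a lower mean in the UB, and 0 lay below the pseudocount on all 3 UB arrays.

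Most stromal and matrix genes fell too, with smaller medians. Of 13 stromal genes, 2 rose and 10 fell (median -3.31), and of 43 interstitial matrix genes 6 rose and 32 fell (median -1.51). Col1a1, a chain of collagen I, had 352, 297 and 263 on the UB arrays and 8246, 6673 and 10370.5 on the WD arrays. Col3a1 had 2290.2, 2912 and 1553 on the UB arrays and 65381, 48107 and 62628 on the WD arrays, and the proteoglycan decorin (Dcn) had 356, 349.8 and 343 on the UB arrays and 15634, 11452 and 13388 on the WD arrays. The UB arrays agreed closely for Dcn, and the 3 genes fell with log2 differences of -4.58 ± 0.19, -4.71 ± 0.21 and -5.09 ± 0.21 (SE, adjusted p = 2.36e-08, 3.52e-08 and 2.36e-08). The PDGF receptor of mural and stromal cells, Pdgfrb, had 150.0, 151 and 36.2 on the UB arrays and 3047, 2151 and 3102 on the WD arrays, and the stromal transcription factor Alx1 changed by -3.73 ± 0.18 (SE, adjusted p = 8.20e-08). Summed stromal intensity was 16707 to 21435 in the UB, 178999 to 195228 in the WD and 289364 to 337516 with mesoderm. In bulk RNA, fewer cells of a type and less RNA per cell cannot be told apart, and the part of such cells in other falls was not tested. 10 of the 13 stromal markers had a lower mean in the UB. With the spike term 3 rises and 19 falls of the matrix list passed.

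The rises within the matrix and stromal lists, shares of their members close to the background, included some chains of a collagen trimer. The collagen IX chain Col9a1, a cartilage collagen, had 8058, 7816 and 8713 on the UB arrays and 225, 297 and 284 on the WD arrays and rose by 4.72 ± 0.29 (SE, adjusted p = 5.05e-07). Col9a3, another chain of the same trimer, rose by 2.03 ± 0.27 (SE, adjusted p = 1.98e-04), and the remaining chain Col9a2, singled out after its value was seen, differed by 0.52 ± 0.25 (adjusted p = 0.14). The matrix signalling protein Ccn1 rose by 2.08 ± 0.25 while its relative Ccn2 changed by -1.51 ± 0.21 (SE, adjusted p = 8.71e-05 and 3.39e-04), and both calls were lost with the spike term (adjusted p = 0.071 and 0.118). The stromal genes that rose were the T-box factor Tbx18, at 742, 829 and 635 on the UB arrays and 191, 127 and 251 on the WD arrays, and the semaphorin Sema3d, at 3887, 4077 and 5649 on the UB arrays and 2060.1, 1945 and 1463 on the WD arrays. Their arrays did not overlap (1.75 ± 0.42 and 1.29 ± 0.21, adjusted p = 0.0091 and 8.91e-04). The Tbx18 call was lost with the beta-actin covariate (adjusted p = 0.104).

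**Figure D3:**
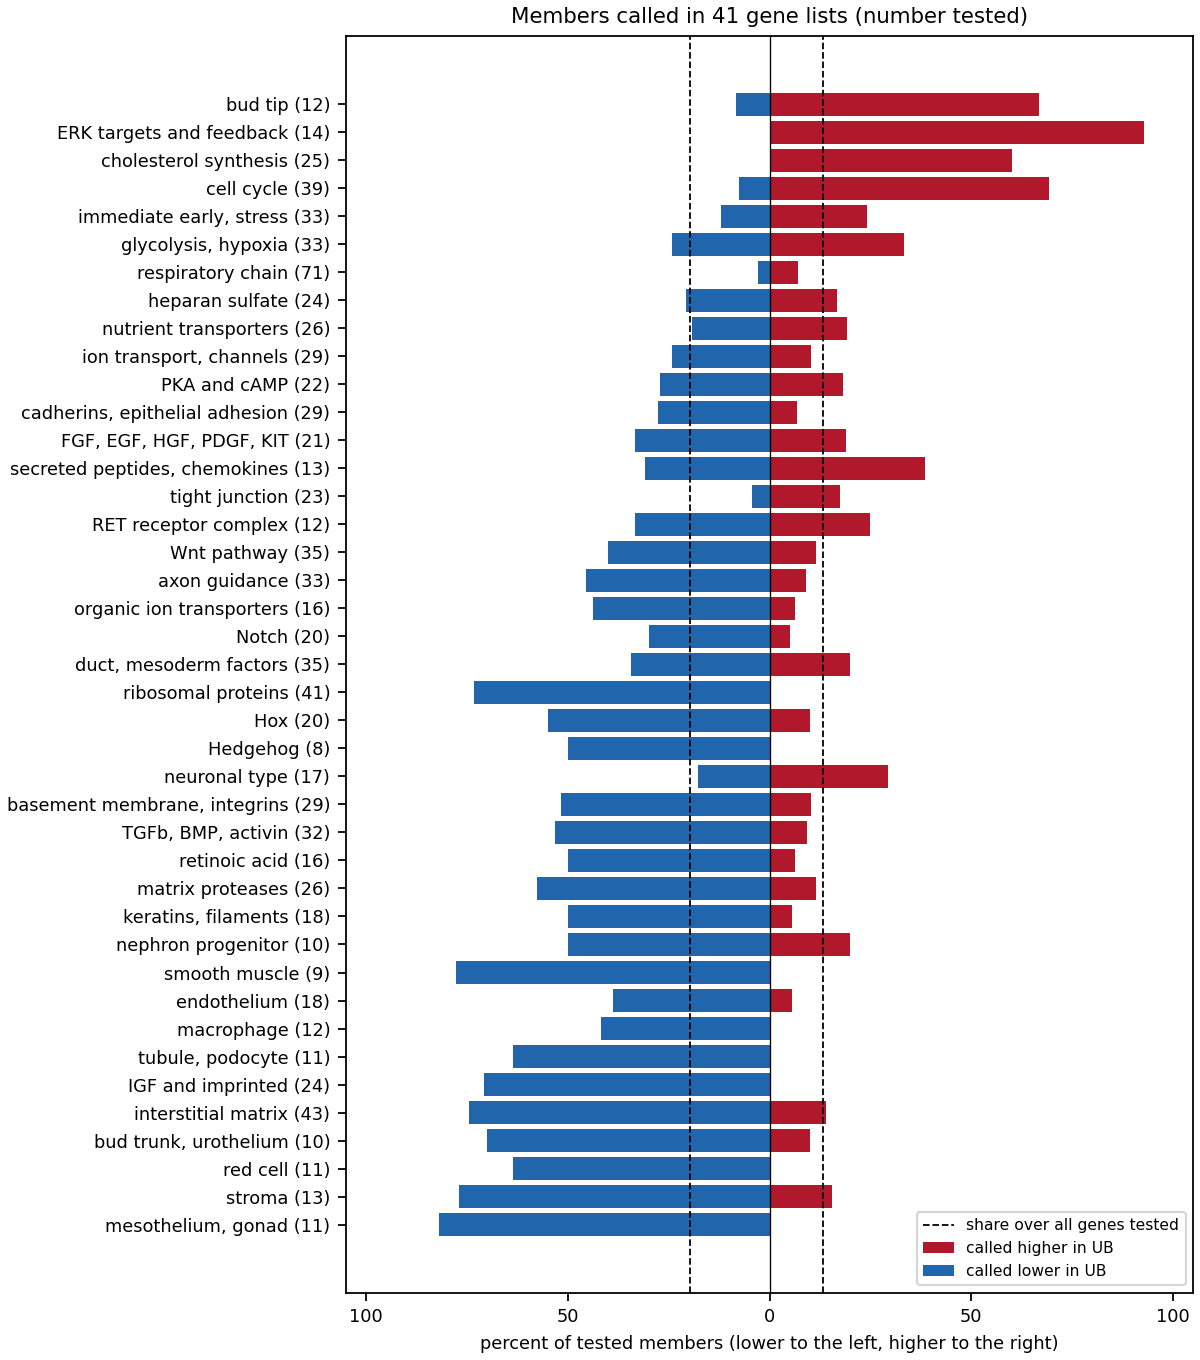
Percent of the tested members of the 41 gene lists that rose (red, to the right) or fell (blue, to the left) in the UB, ordered by median log2 difference, with the number tested in brackets. Dashed lines mark the shares over all genes tested, 13.3% higher and 19.6% lower; ERK targets, cell cycle, the bud tip and cholesterol synthesis extend furthest to the right, and mesothelium, smooth muscle, stroma and interstitial matrix furthest to the left.

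Most markers of red cells and of tubule cells fell. Of 11 red cell genes, 0 rose and 7 fell (median -2.43). The embryonic globin Hbz had 2011, 6450.0 and 2149 on the UB arrays and 114581, 73606 and 70972 on the WD arrays, and Hbe1 had 9590.2, 24224 and 6345 on the UB arrays and 128145, 129511 and 104616 on the WD arrays. UB replicate 2 had the highest level of both globins among the UB arrays and stayed far below the WD arrays (-4.77 ± 0.37 and -3.39 ± 0.35, adjusted p = 2.65e-06 and 3.30e-05). Globin genes share sequence, and their probe sets may not separate them. The haemoglobin chaperone Ahsp changed by -5.22 ± 0.38 (SE, adjusted p = 1.54e-06). The list summed to 28039.9 to 51132 in the UB, 198798 to 275283 in the WD and 173398 to 250101 with mesoderm. After the spike term was added, 3 of its falls passed. Of 11 tubule and podocyte genes 0 rose and 7 fell. Dab2, an adaptor of endocytosis, had 1149.5, 1251 and 1002 on the UB arrays and 10112, 10537 and 11331 on the WD arrays (-3.19 ± 0.17 (SE, adjusted p = 1.28e-07)), and the endocytic receptor Lrp2 and the podocyte sialomucin Podxl changed by -2.92 ± 0.22 and -2.57 ± 0.17 (SE).

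Some endothelial and macrophage markers and most smooth muscle markers fell. Of 18 endothelial genes 1 rose and 7 fell, and summed intensity was 7451 to 9494 in the UB, 14379 to 17668 in the WD and 67054 to 71125 with mesoderm. The rise was claudin 5, Cldn5 (0.66, adjusted p = 0.0486), also counted among the tight junction rises. Its call was lost without any of the 3 UB replicates or WD replicate 1 or 3 (adjusted p up to 0.153). The Cldn5 call was also lost with the spike term and the beta-actin covariate (adjusted p = 0.634 and 0.211). The endothelial falls numbered 3 with quantile normalization and 3 with the beta-actin covariate. Of 12 macrophage genes 0 rose and 5 fell, with sums of 2108 to 3073 in the UB and 4897 to 8019 in the WD. Without UB replicate 1 or WD replicate 2 the macrophage falls numbered 3, as they did with centring on all probe sets; they numbered 2 with quantile normalization and 0 with a filter at the 60th percentile. Under the spike term 1 endothelial and 0 macrophage falls passed. The macrophage lysozyme Lyz2 changed by -2.03 ± 0.33 (SE, adjusted p = 9.08e-04) and the lymphatic receptor Lyve1 by -2.19 ± 0.32 (SE, adjusted p = 4.41e-04), with 0.121 and 0.062 under the spike term. Of 9 smooth muscle genes 0 rose and 7 fell, led by transgelin, Tagln (-2.74 ± 0.36 (SE, adjusted p = 1.79e-04)). In the fit with the spike term, 2 of these falls passed, and with centring on all probe sets 4.

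Most of the insulin-like growth factor and imprinted genes tested fell. Of 24, 0 rose and 17 fell, with a median of -1.37; Dcn is in this list too. Meg3, a non-coding RNA, and Dlk1, a Notch-like ligand, come from 1 imprinted cluster and are expressed from opposite parental copies. Meg3 had 213, 298 and 393 on the UB arrays and 20160.0, 15858 and 12527 on the WD arrays, and Dlk1 had 172, 210.2 and 153 on the UB arrays and 4753, 4392 and 5239 on the WD arrays. Both fell on every UB array (-5.55 ± 0.24 and -4.44 ± 0.20, adjusted p = 3.52e-08 and 3.52e-08). The pair Igf2, a fetal growth factor, and H19, a non-coding RNA, likewise from 1 cluster with opposite parental expression, were singled out after their values were seen. Igf2 had 22176, 21509 and 18816 on the UB arrays and 104383, 115823 and 141039 on the WD arrays, and H19 had 23425, 26196 and 20889 on the UB arrays and 110885, 101514 and 136596 on the WD arrays. Every UB array lay below every WD array for both genes (-2.52 ± 0.16 and -2.30 ± 0.14, adjusted p = 7.36e-07 and 4.59e-07). The IGF-binding protein Igfbp3 had 1064, 883 and 1309.8 on the UB arrays and 52624, 37502 and 70897 on the WD arrays (-5.54 ± 0.24 (SE, adjusted p = 3.22e-08)). On the arrays of WD with mesoderm Igf2 was at 106042, 132616 and 86184 and Meg3 at 14253, 16495 and 10446, near the bare WD. With the spike term 8 of the falls passed.

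Hox genes specify position along the body axis. Of 20 tested, 2 rose and 11 fell. Hoxa5 had 777, 711 and 801 on the UB arrays and 9921, 8816 and 8143 on the WD arrays. Hoxa9 had 652, 447 and 587 on the UB arrays and 9562, 8212 and 5212 on the WD arrays, and Hoxc9 had 64.3, 136 and 185 on the UB arrays and 3457, 2259 and 1631 on the WD arrays. The UB arrays were all lower, with log2 differences of -3.47 ± 0.18, -3.63 ± 0.23 and -3.84 ± 0.32 (SE, adjusted p = 1.10e-07, 5.94e-07 and 4.65e-06). Hoxa10 differed by -1.82 ± 0.22, Hoxc8 by -3.38 ± 0.45 and Hoxa7 by -2.27 ± 0.43, named after their values were seen; the calls for Hoxc8 and Hoxa7 were lost with the spike term (adjusted p = 0.0882 and 0.071), and that for Hoxa7 also with the beta-actin covariate (0.0559). In the HoxB cluster none of the 5 genes tested fell. Hoxb7 and Hoxb4 rose by 0.90 ± 0.32 and 0.70 ± 0.20 (adjusted p = 0.0495 and 0.0222). The Hoxb7 arrays overlapped, and its call was lost without UB replicate 2 or 3 or WD replicate 1 or 2 (adjusted p up to 0.181); that of Hoxb4 was lost without UB replicate 1 or 2 or WD replicate 1 (adjusted p up to 0.0866). Both were also lost with the spike term (adjusted p = 0.644 and 0.169). In the HoxD cluster the largest difference was Hoxd10, at -0.97 ± 0.21 (SE, adjusted p = 0.0056), not called with the spike term, the beta-actin covariate or centring on all probe sets (adjusted p = 0.0651, 0.11 and 0.144). The difference between clusters was not tested. With centring on all probe sets 6 Hox genes rose and 6 fell, with the spike term 4 fell and with the beta-actin covariate 5 fell.

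**Figure D4:**
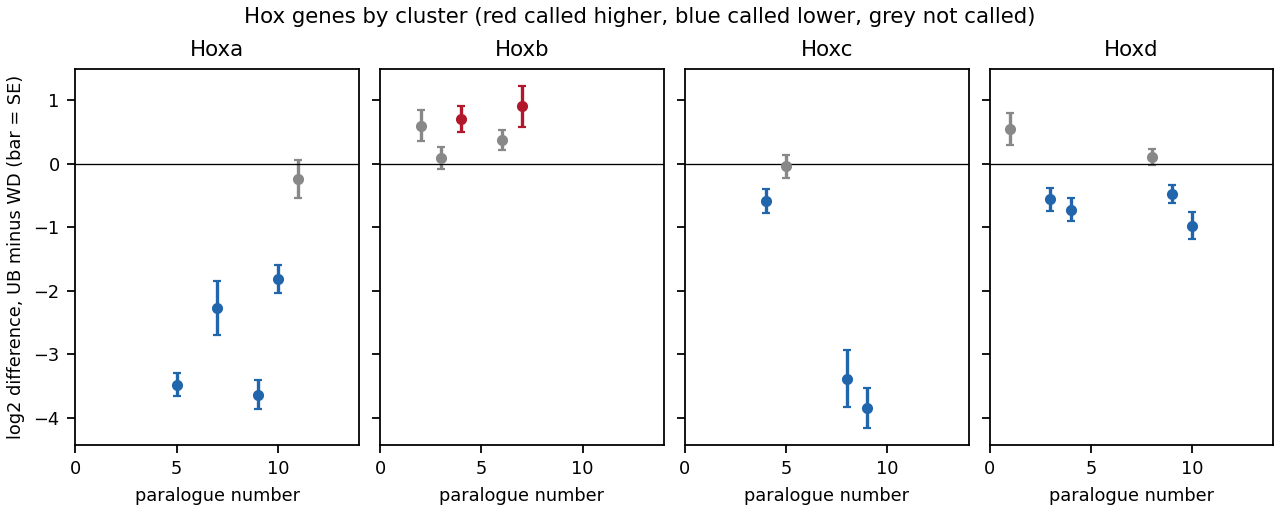
Log2 difference, UB minus WD, with its SE, for the 20 Hox genes tested, 1 panel per cluster, against the paralogue number on the x axis; red rose, blue fell and grey was not called. The deepest falls are in HoxA (Hoxa5 -3.47, Hoxa9 -3.63) and HoxC (Hoxc9 -3.84), and the HoxB points lie above 0.

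Among the other transcription factors of duct and mesoderm, 7 of 35 rose and 12 fell (20% and 34.3%, against 13.3% and 19.6% of all genes tested). The rises numbered 4 with the spike term, 3 with the beta-actin covariate and 11 with centring on all probe sets. Lhx1, required for the duct, had 12403, 10482 and 15694 on the UB arrays and 3755, 5405 and 3411 on the WD arrays and rose by 1.62 ± 0.22 (SE, adjusted p = 2.42e-04). Pax8, a close relative of Pax2, had 3971, 5631 and 5956 on the UB arrays and 10125, 10764 and 10005 on the WD arrays and fell without overlap of the arrays (adjusted p = 9.34e-04). Its call was lost with the spike term, with the mean of its probe sets and with centring on all probe sets (adjusted p = 0.118, 0.229 and 0.0597). The mesenchymal factors Meis1, Twist1 and Zeb1, named after their values were seen, changed by -3.13 ± 0.18, -2.23 ± 0.21 and -2.21 ± 0.17 (SE). Of 10 nephron progenitor genes 2 rose and 5 fell (20% and 50%). The falls numbered 3 with the spike term or a filter at the 60th percentile. Itga8, the integrin chain of the metanephric mesenchyme, had 315, 360.2 and 266 on the UB arrays and 4281, 3706 and 3185 on the WD arrays (-3.39 ± 0.18 (SE, adjusted p = 1.26e-07)). Crym rose by 1.04 ± 0.21 (SE, adjusted p = 0.00374), with 0.243 under the spike term.

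Of 9 Wnt ligand genes tested, Wnt11 rose and the others fell or were not called. Wnt4, which drives tubule formation in mesenchyme, had 324, 227 and 339.6 on the UB arrays and 3526, 3733 and 3489 on the WD arrays, and Wnt9a had 231, 109 and 265 on the UB arrays and 1309, 1626 and 1418 on the WD arrays. Both fell without overlap (-3.42 ± 0.21 and -2.65 ± 0.31, adjusted p = 4.43e-07 and 7.47e-05), and so did Wnt2b (-2.08 ± 0.27, named after its value was seen). Of the secreted inhibitors, Sfrp1 had 2444, 2881 and 2013 on the UB arrays and 18683, 19089.7 and 18708 on the WD arrays (-2.94 ± 0.17 (SE, adjusted p = 2.75e-07)), and Wif1 changed by -2.32 ± 0.30 (SE), named in the same way. Of 35 Wnt pathway genes 4 rose and 14 fell. The rises other than Wnt11 were the receptors Lgr4 and Fzd8 and the transcription factor Tcf7 (0.99 ± 0.31, 0.67 ± 0.20 and 0.60 ± 0.14). The call was lost for Lgr4 without UB replicate 2 or 3 or WD replicate 1 or 2 (adjusted p up to 0.124), for Fzd8 without any UB replicate or WD replicate 2 (up to 0.102) and for Tcf7 without UB replicate 1 (0.051). All 3 calls were also lost with the spike term (adjusted p = 0.281, 0.113 and 0.468), and those for Lgr4 and Fzd8 with the beta-actin covariate (adjusted p = 0.528 and 0.146). The rises of the list numbered 2 without any of the 3 UB replicates or WD replicate 2, and 7 with quantile normalization. After the spike term was added, 1 rise and 5 falls of the list passed, and with centring on all probe sets 10 and 8.

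Other growth factor receptors moved both ways. Of 21 FGF, EGF, HGF, PDGF and KIT genes 4 rose and 7 fell. The rises numbered 2 without any of the 3 UB replicates or WD replicates 1 or 2, and with no filter or a filter at the 60th percentile, and 1 with the beta-actin covariate. With the spike term 2 rose and 4 fell, and with centring on all probe sets 4 fell. The FGF receptors Fgfr3 and Fgfr2 changed by -1.82 ± 0.24 and -1.01 ± 0.13 and Egfr by -1.66 ± 0.31 (SE, adjusted p = 1.94e-04, 1.48e-04 and 0.00204). Fgfr3 lost its call with the spike term (adjusted p = 0.0753) and Fgfr2, named after its value was seen, with centring on all probe sets (adjusted p = 0.0506). The receptor kinase Kit was the exception with the largest rise, at 975, 1006 and 2149 on the UB arrays and 73.8, 441 and 125 on the WD arrays. Its arrays did not overlap but were widely spread in both tissues (2.63 ± 0.57 (SE, adjusted p = 0.00527)), and the beta-actin covariate ended the call (adjusted p = 0.105). Its ligand gene Kitlg rose by 0.83 ± 0.17 (SE, adjusted p = 0.00378), with 0.207 under the spike term.

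Of 32 BMP, TGF-beta and activin genes tested 3 rose and 17 fell (median -0.73). The BMP antagonist chordin (Chrd) had 45.6, 98.4 and 70.6 on the UB arrays and 1547, 1028 and 1284 on the WD arrays and changed by -3.51 ± 0.38 (SE, adjusted p = 4.12e-05). Grem1, an antagonist that permits bud outgrowth, changed by -2.51 ± 0.34 (SE, adjusted p = 2.42e-04), with 0.0904 under the spike term. Follistatin (Fst), the activin antagonist, went the other way, at 1189, 826 and 785 on the UB arrays and 150.3, 268 and 232 on the WD arrays (1.90 ± 0.36 (SE, adjusted p = 0.00253)). Bmp7, made by the branching bud, rose by 0.85 ± 0.21 (SE, adjusted p = 0.0117), a call lost with the spike term and the beta-actin covariate (adjusted p = 0.186 and 0.269). The BMP-induced factor Id2 changed by -1.11 ± 0.17 (SE, adjusted p = 5.19e-04) and the ligand Bmp2 by -1.79 ± 0.22 (SE, adjusted p = 1.20e-04), both named after their values were seen. Id2 lost its call with the spike term (adjusted p = 0.262). With that term 1 rise and 3 falls of the list passed, and the falls numbered 8 with centring on all probe sets and 11 with a filter at the 60th percentile.

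Hedgehog signalling acts through the receptor components Smo, Boc and Ptch1 and the Gli transcription factors. Of 8 Hedgehog genes tested, 0 rose and 4 fell. Gli1, a transcription factor whose own level reports Hedgehog signalling, had 764, 675 and 772 on the UB arrays and 3938, 3293 and 3569 on the WD arrays (-2.22 ± 0.17 (SE, adjusted p = 2.92e-06)). The co-receptor Boc and the transcription factor Gli2 changed by -2.05 ± 0.26 and -1.93 ± 0.23 (SE, adjusted p = 1.57e-04 and 9.74e-05), and Gli2 lost its call with the spike term (adjusted p = 0.0557). With the spike term 2 of the falls passed. The other member that fell was the receptor Smo (-0.57 ± 0.14), which was not called with the spike term, the beta-actin covariate or centring on all probe sets (adjusted p = 0.295, 0.0649 and 0.713), nor with centring on tested probe sets, and turned direction without a call with the mean of its probe sets. Of 20 Notch genes 1 rose and 6 fell (5% and 30%, against 13.3% and 19.6% of all genes tested). The Notch falls numbered 3 with quantile normalization, 3 with the beta-actin covariate and 1 with the spike term, while with centring on all probe sets 3 rose. Hes6, which counters the Notch target Hes1, rose by 0.97 ± 0.15 (SE, adjusted p = 5.96e-04), with 0.0663 under the spike term.

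Of 16 retinoic acid synthesis, binding and response genes tested 1 rose and 8 fell. The falls numbered 5 with the spike term, and with centring on all probe sets 4 rose and 5 fell. Aldh1a2, the main embryonic enzyme of retinoic acid synthesis, had 5571, 5965 and 3159 on the UB arrays and 58758, 68374 and 60551 on the WD arrays. The binding protein Crabp1 had 4086, 3328 and 3247 on the UB arrays and 23251, 12809.6 and 23714 on the WD arrays, and the retinoid-induced transglutaminase Tgm2 had 1639, 1581 and 1703 on the UB arrays and 13057, 21750.3 and 15468 on the WD arrays. The arrays of the tissues did not overlap for any of the 3 (-3.71 ± 0.20, -2.43 ± 0.21 and -3.28 ± 0.19, adjusted p = 1.55e-07, 9.03e-06 and 2.21e-07). Crabp1 was higher still with mesoderm attached, at 56441, 71269 and 57170.0. Rdh10, which makes the retinaldehyde that Aldh1a2 uses, rose by 1.04 ± 0.22 (SE, adjusted p = 0.00503), a call lost with the spike term and the beta-actin covariate (adjusted p = 0.246 and 0.122). Cyp26b1, which breaks retinoic acid down, changed by -1.47 ± 0.20 (SE), named after its value was seen.

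Among axon guidance genes, Robo2, a receptor for Slit ligands that restrains budding, had 7364, 7938 and 5953 on the UB arrays and 1794, 2315 and 1231 on the WD arrays and rose by 2.00 ± 0.22 (SE, adjusted p = 4.24e-05). Slit1 rose by 1.46 ± 0.38 (SE, adjusted p = 0.0129), but not without UB replicate 3 or with the beta-actin covariate (adjusted p = 0.0563 and 0.0872). Of 33 tested 3 rose and 15 fell. The rises numbered 5 with quantile normalization and 9 with centring on all probe sets. Among the falls were Sema6d and netrin 1, Ntn1 (-2.14 ± 0.27 and -1.93 ± 0.33, adjusted p = 1.29e-04 and 0.00118), both lost with the spike term (adjusted p = 0.0977 and 0.207). With that term 1 fall of the list passed, with quantile normalization 8 and with centring on all probe sets 8.

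Of 29 genes of the basement membrane, on which the bud sits, and of its receptors 3 rose and 15 fell. Itga6, the laminin receptor chain of epithelia, had 16768, 14782 and 14143 on the UB arrays and 5387, 4726 and 5479 on the WD arrays and rose by 1.54 ± 0.14 (SE, adjusted p = 1.36e-05). Lama1, a laminin chain of embryonic epithelia, rose by 1.12 ± 0.20 (SE, adjusted p = 0.00178), with 0.135 under the spike term, while Lama5 changed by -1.25 ± 0.13 (SE, adjusted p = 3.74e-05), named after its value was seen. The linker nidogen 2 (Nid2) had 1435, 1653 and 1376 on the UB arrays and 7976, 8353 and 8219.9 on the WD arrays (-2.43 ± 0.15 (SE, adjusted p = 4.70e-07)). Col4a1 and the common integrin chain Itgb1 differed by -0.19 ± 0.19 and -0.09 ± 0.17 (adjusted p = 0.469 and 0.708). Among matrix proteases and inhibitors 3 of 26 rose and 15 fell. The inhibitor Serpine2 had 3354, 3481 and 3074 on the UB arrays and 961, 722 and 718 on the WD arrays and rose by 1.99 ± 0.20 (SE, adjusted p = 2.04e-05). Its target tissue plasminogen activator (Plat), the inhibitor Timp3 and the gelatinase Mmp2 changed by -2.68 ± 0.21, -2.80 ± 0.23 and -2.34 ± 0.18 (SE, adjusted p = 2.89e-06, 4.70e-06 and 3.25e-06). Under the spike term the falls passed for 6 and 5 members of the lists, and with centring on all probe sets for 9 and 7. The rises numbered 1 and 1 with the spike term, and for the proteases 1 without UB replicate 1 or 2 or WD replicate 3.

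The sulfatases that remove 6-O-sulfate from heparan sulfate, a co-factor of GDNF and FGF signalling, went in opposite directions. Sulf2 rose by 0.70 ± 0.11 (SE, adjusted p = 6.55e-04) and Sulf1 changed by -2.23 ± 0.25 (SE, adjusted p = 6.53e-05). Sulf2 had 21539.7, 21842 and 21459 on the UB arrays and 12429, 13919 and 13636 on the WD arrays and Sulf1 had 195, 231 and 162 on the UB arrays and 1033, 1063 and 1156 on the WD arrays, without overlap in either case. Both calls were lost with the spike term (adjusted p = 0.0694 and 0.0514), and the difference between the genes was not tested. Of 24 heparan sulfate genes 4 rose and 5 fell, shares close to the background. With the spike term 0 rose and 0 fell, with the beta-actin covariate 2 and 3, without UB replicate 1 2 and 3, and with centring on all probe sets 10 and 2; without UB replicate 3 the falls numbered 3.

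Most genes of DNA replication and mitosis rose, by modest amounts. Of 39 cell cycle genes tested 27 rose and 3 fell, with a median of 0.65. The falls numbered 0 with the spike term and 1 with the beta-actin covariate or with centring on all probe sets. Geminin (Gmnn), which keeps a replication origin from being licensed again, had 11542, 11649.5 and 12079 on the UB arrays and 4265, 4440.1 and 4607 on the WD arrays. The mitotic kinase Aurkb had 10670.2, 9238 and 12767 on the UB arrays and 4152, 4344 and 4759 on the WD arrays. Both rose with no overlap of the arrays (1.40 ± 0.12 and 1.28 ± 0.14, adjusted p = 7.39e-06 and 6.19e-05). Thymidylate synthase (Tyms) rose by 1.32 ± 0.24 (SE, adjusted p = 0.00189), and cyclins Ccnd1 and Ccne1 by 1.27 ± 0.20 and 1.15 ± 0.17, the last 2 named after their values were seen. The inhibitors Cdkn1a and Cdkn1c changed by -1.28 ± 0.21 and -0.60 ± 0.12 (SE, adjusted p = 0.00104 and 0.00304). In the fit with the spike term, the calls for Tyms, Ccnd1, Ccne1, Cdkn1a and Cdkn1c were lost (adjusted p = 0.148, 0.293, 0.0775, 0.0852 and 0.212), and 2 of the 27 rises passed at a median of 0.59.

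Most genes of cholesterol synthesis were higher in the UB. Of 25 genes of cholesterol and lipid synthesis 15 rose and 0 fell (60% and 0%, against 13.3% and 19.6% of all genes tested). The 3 UB arrays lay wholly above the 3 WD arrays for 17 of the 25, and for 22.1% of all genes tested. Idi1, which isomerises the isoprenoid building block of sterols, had 13539.5, 15796 and 16702 on the UB arrays and 4261, 4860.3 and 5111 on the WD arrays. Hsd17b7, a later enzyme of the sterol pathway, had 2795, 2468 and 2342 on the UB arrays and 929, 926 and 773 on the WD arrays. Neither overlapped between the tissues (1.68 ± 0.15 and 1.49 ± 0.22, adjusted p = 9.97e-06 and 4.46e-04). Acat2 rose by 1.38 ± 0.15 (SE, adjusted p = 5.35e-05), and Insig1, Msmo1 and Sqle, named after their values were seen, by 1.32 ± 0.18, 1.29 ± 0.14 and 0.91 ± 0.15 (SE). Srebf2, the transcription factor that induces these enzymes and acts through cleavage of its protein, differed by -0.06 ± 0.22 (adjusted p = 0.848). The rises numbered 15 with quantile normalization, 20 with centring on all probe sets, 10 with the beta-actin covariate and 3 with the spike term, where the median was 0.76 against 0.69. Under that term Hsd17b7, Acat2 and Sqle lost their calls (adjusted p = 0.0829, 0.0537 and 0.087).

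**Figure D5:**
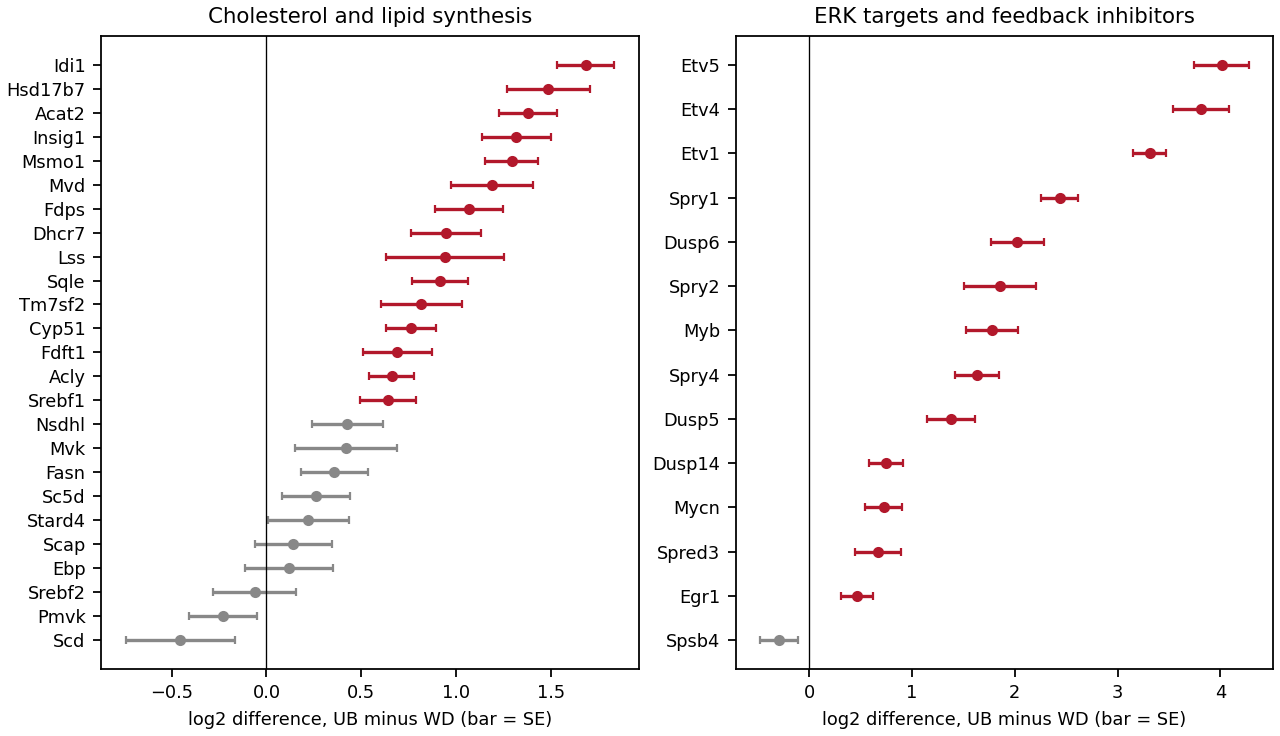
Log2 difference, UB minus WD, with its SE, for the tested genes of cholesterol and lipid synthesis (left, 25 genes) and for ERK targets and feedback inhibitors (right, 14 genes); red points rose and grey points were not called. The x axes differ: the cholesterol genes reach 1.68 (Idi1) and the ERK targets 4.01 (Etv5).

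Upstream sequences of genes that rose together were searched for 16 motifs over 4 lists, with no test. CCAAT, the site of the factor NF-Y that is common to sterol and mitotic promoters, was added after matches of the overlapping longer form ATTGGC were seen. ATTGGC stands in 7 of 13 and 9 of 21 genes of the cholesterol and cell cycle lists, against 18% of the tested genes in the table. It stands in 2 of 10 ERK targets and 2 of 6 immediate early genes. CCAAT stood on either strand in 10 of the 13 cholesterol genes that rose and are in the table, in 15 of 21 such cell cycle genes and in 3 of 10 ERK targets, against 35.9% of the 9009 tested genes in the table. The sterol element form TCACNCCAC stood in 0 of the 13 cholesterol genes, against 0.976% of all upstream sequences. The 250 bases before the start of Idi1 (chr17:66547525-66547774 on the minus strand), Hsd17b7 (chr13:84722755-84723004 on the minus strand) and Gmnn (chr17:40729584-40729833 on the plus strand) are given from RefSeq (GRCr8), 5' to 3' on the gene's strand, with CCAAT or its complement in capitals, as the largest rises of the cholesterol and cell cycle lists.
Idi1: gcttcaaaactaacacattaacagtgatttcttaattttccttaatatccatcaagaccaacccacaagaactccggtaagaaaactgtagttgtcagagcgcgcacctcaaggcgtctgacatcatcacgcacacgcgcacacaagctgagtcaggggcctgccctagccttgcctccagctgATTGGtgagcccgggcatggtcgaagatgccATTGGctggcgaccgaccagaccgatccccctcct
Hsd17b7: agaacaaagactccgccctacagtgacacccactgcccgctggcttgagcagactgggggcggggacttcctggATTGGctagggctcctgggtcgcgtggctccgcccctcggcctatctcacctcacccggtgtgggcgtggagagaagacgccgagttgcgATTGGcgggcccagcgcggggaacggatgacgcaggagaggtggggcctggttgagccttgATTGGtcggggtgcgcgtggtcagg
Gmnn: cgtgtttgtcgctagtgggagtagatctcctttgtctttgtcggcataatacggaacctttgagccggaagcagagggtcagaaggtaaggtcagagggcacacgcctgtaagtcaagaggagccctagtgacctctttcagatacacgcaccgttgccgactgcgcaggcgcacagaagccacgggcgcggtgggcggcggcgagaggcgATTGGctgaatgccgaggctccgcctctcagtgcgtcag
They hold 2, 3 and 1 matches. The upstream sequence of Tyms, the next largest rise of the cell cycle list, holds 0 matches of CCAAT and is not printed. A match is a description of the letters and shows no binding.

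Sugar metabolism genes were called in both directions. Of 33 glycolysis and hypoxia genes 11 rose and 8 fell (33.3% and 24.2%, against 13.3% and 19.6% of all genes tested). The lactate exporter Slc16a3 had 9916, 9527 and 8309.7 on the UB arrays and 2302, 2940.3 and 3124 on the WD arrays and rose by 1.72 ± 0.19 (SE, adjusted p = 5.54e-05), and the oxygen sensor Egln3 had 2027, 2035 and 2221 on the UB arrays and 775, 438 and 591 on the WD arrays and rose by 1.76 ± 0.27 (SE, adjusted p = 5.52e-04). The glucose transporter Slc2a1 rose by 0.76 ± 0.13 (SE, adjusted p = 0.0016). Hexokinase 2 (Hk2) was called at 2.52 ± 0.70 (SE, adjusted p = 0.0183) but not without UB replicate 3 or WD replicate 2 (adjusted p = 0.0778 and 0.0594), nor with the spike term (0.18). The hypoxia factor Epas1, common in stroma and endothelium, and the neuronal enolase Eno2 changed by -1.82 ± 0.28 and -2.00 ± 0.42 (SE, adjusted p = 6.58e-04 and 0.00435). Slc16a3, Slc2a1 and Epas1 lost their calls with the spike term (adjusted p = 0.0517, 0.164 and 0.16) and Eno2 with the beta-actin covariate (0.0997). With the beta-actin covariate 7 genes of the list rose and 4 fell, and the falls numbered 4 with centring on all probe sets and 2 with the spike term. Rises in the list numbered 7 without UB replicate 1 or 2, 17 with centring on all probe sets and 1 with the spike term. The falls numbered 5 without UB replicate 3 or WD replicate 1.

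Ribosomal protein and respiratory chain genes depended on the scaling. Of 41 ribosomal protein genes 0 rose and 30 fell at a median of -0.46. The falls numbered 1 with quantile normalization, and 0 with centring on all probe sets, where the median was 0.00. They also numbered 14 without UB replicate 1, 13 without UB replicate 3, 15 without WD replicate 2 and 16 without WD replicate 3. With no filter on low values they numbered 17, with the beta-actin covariate 8 and with the spike term 0. Of 71 respiratory chain genes 5 rose and 2 fell, both below the background shares, and 35 rose with centring on all probe sets. The rises numbered 0 without UB replicate 1 or 2, 1 without UB replicate 3 or WD replicate 2, and 0 with quantile normalization, where 5 fell. Centring on the tested probe sets gave 12 rises here and 8 ribosomal falls; in the other lists described it gave 4 Hox, 4 adhesion, 5 guidance and 14 immediate early rises, and 5 adhesion, 5 glycolysis and hypoxia, 3 heparan sulfate and 1 neuronal-type falls. No direction is given for either group. The subunit isoform Cox4i2 was the exception with a large change (-1.74 ± 0.33 (SE, adjusted p = 0.00258); 0.193 with the spike term).

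Transporter genes of the future collecting system and tubules were also called in both directions. Of 26 nutrient transporter genes 5 rose and 5 fell (19.2% each). Of 29 ion transport and channel genes 3 rose and 7 fell (10.3% and 24.1%). Both were near the background of 13.3% and 19.6%. The counts were 0 and 1, and 1 and 1, with the spike term, and 10 and 1, and 8 and 6, with centring on all probe sets. Among 16 organic ion transporter genes 1 rose and 7 fell (6.25% and 43.8%). The equilibrative nucleoside transporter Slc29a1 had 239, 32.7 and 245 on the UB arrays and 1185, 1474 and 919.5 on the WD arrays, without overlap but with a spread of several-fold in the UB (-2.70 ± 0.45 (SE, adjusted p = 0.00104)). The drug efflux pump Abcg2 changed by -1.57 ± 0.29 (SE, adjusted p = 0.00188), and the peptide transporter Slc15a1 rose by 2.79 ± 0.64 (SE, adjusted p = 0.00701). All 3 calls were lost with the spike term (adjusted p = 0.14, 0.128 and 0.278), under which 0 falls of the 16 organic ion transporter genes passed, against 7 in all and 4 with centring on all probe sets. The amino acid transporter Slc38a4 had 918, 674 and 1077 on the UB arrays and 3098, 2865 and 3983 on the WD arrays (-1.85 ± 0.21 (SE, adjusted p = 6.69e-05)), and the sodium pump subunit Atp1b3 had 16496, 14563 and 16095 on the UB arrays and 7300.2, 5701 and 7454 on the WD arrays (1.21 ± 0.14 (SE, adjusted p = 6.19e-05)). The calcium channel Cacna1g changed by -3.19 ± 0.42 (SE, adjusted p = 2.12e-04), with 0.108 under the spike term. Of signalling enzymes, the adenylyl cyclase Adcy8 and the prostaglandin synthase Ptgs1 changed by -3.09 ± 0.50 and -2.52 ± 0.22 (SE, adjusted p = 8.87e-04 and 6.87e-06). In the list of Adcy8, 22 protein kinase A and cAMP genes, 4 rose and 6 fell (18.2% and 27.3%). The counts were 0 and 1 with the spike term and 8 and 2 with centring on all probe sets. In that of Ptgs1, 13 secreted peptide and chemokine genes, 5 rose and 4 fell (38.5% and 30.8%), and 3 and 3 with the spike term. Ptgs1 had 437, 612 and 404 on the UB arrays and 2686, 2898 and 3312 on the WD arrays.

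Immediate early genes, which respond to handling and enzyme digestion as well as to growth factors, did not move as a block. Of 33 tested 8 rose and 4 fell (24.2% and 12.1%, against 13.3% and 19.6% of all genes tested). With the beta-actin covariate 4 rose and 2 fell. Egr2, a zinc finger factor, had 2465, 2599 and 5888 on the UB arrays and 380.4, 299 and 727 on the WD arrays, and UB replicate 3 stood well above the other 2 UB arrays (2.81 ± 0.39 (SE, adjusted p = 2.69e-04)). Atf3, a stress factor, rose by 2.45 ± 0.64 (SE, adjusted p = 0.0136), a call lost with the spike term and the beta-actin covariate (adjusted p = 0.545 and 0.0945). Fos and Jun, named after their values were seen, differed by 0.64 ± 0.39 and -0.04 ± 0.14 (adjusted p = 0.231 and 0.866). The heat shock protein Hspb1 changed by -2.75 ± 0.40 (SE, adjusted p = 4.26e-04), with 0.132 under the spike term. Without UB replicate 3 the rises numbered 5 and the falls 2, and without UB replicate 1 the falls 2. With centring on all probe sets 17 rose, Fos among them, and with the spike term 1. Only the UB was digested, and the part of digestion in these values cannot be told apart from the tissue.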

How the data were processed

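Pooled rat tissue gave total RNA for biotin-labelled cRNA, hybridised to Affymetrix arrays of 1 colour, per the labels' protocols. The authors deposited 1 linear intensity per probe set and array, made with GCOS, the Affymetrix operating software, per the submitters' processing notes; version and summary algorithm: not given in the sources used here. After trimming 2% of values at each end, every array has a mean of 2501. Of 31099 probe sets, 57 were controls, 20826 had 1 gene symbol, 436 several and 9780 none; 20758 were matched by Entrez ID to GRCr8 gene names. No detection calls were used. Precision is limited by the number of arrays.

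Values were taken as log2(intensity + 46), the 10th percentile of all values. Probe sets above the 40th percentile of the array on at least 3 of 9 arrays were tested (20330 probe sets, 10809 genes, each by its brightest probe set). Models with tissue as the only term were fitted to 9 arrays with limma 3.58.1 (R 4.3.3, mean-variance trend), and p-values adjusted by Benjamini-Hochberg. The procedure was tested on simulated data. Of 1024 called genes with another tested probe set, 15 had one called in the opposite direction. Named genes were the 15 largest rises and falls, 3 of each per list, fixed genes, and those stated to be named after their values were seen; list members whose call was lost on leaving out an array are named in part only. The comparison, its lists and members were chosen with earlier results of these data known, so the list counts are descriptions. Replicate numbers were not taken to pair the arrays. Same-number deviations correlated at 0.07, 0.09 and 0.28 and others at -0.22 to 0.16, which cannot settle pairing with 3 arrays a group. Alternatives were quantile normalization, centrings, pseudocounts of 16 and 128, filters, 6 arrays alone, a replicate block, the spike and beta-actin terms, the mean of probe sets and leaving out each array.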

Additional observations from a re-analysis of the deposited data

How the results depend on the processing

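With the spike term 124 genes rose and 396 fell, with the beta-actin covariate 838 and 1226, and with centring on all probe sets, chosen after seeing the data, 3523 and 818, against 1443 and 2122. The causes were not tested. Leaving out 1 array gave 834 to 1305 rises and 1450 to 1900 falls, the fewest of both without UB replicate 1. With the replicate number as a block (replicate block) 1262 genes rose and 1876 fell. The labels do not say whether the numbers pair the samples. Counts under the other alternatives lay within 1.5 times. Of 263 named genes that were called, 111 kept their call and direction in every alternative that could be run; 144 lost it with the spike term, 64 with the beta-actin covariate and 54 on leaving out at least 1 array. Directions turned, without a call, for Abcc3 with the spike term (0.13), for Gpc6 (0.18), Jund (0.21), Prkar2a (-0.015) and Smo (0.056) with the mean of probe sets, and for Cox7a2l with centring on all probe sets (0.0042). Without detection calls, signals near or below 46 intensity units cannot be told from background.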
